A study of Homo sapiens with 24 samples.

Results

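The 10 histone H3 genes of the HIST1 cluster on human chromosome 6 were examined in 7 eCLIP peak lists from 293T cells. eCLIP crosslinks protein to RNA with ultraviolet light, precipitates the protein with an antibody and sequences the RNA that comes with it. A gene was represented by a window on hg19 of 600 nt (700 nt for HIST1H3J), and a peak was taken as its peak when it shared at least 1 nt with the window on the gene's strand. This gave 111 of the 269336 peaks in the 7 lists. The peaks lay in 7 of the 10 windows, and no peak of any list lay on the opposite strand of a window (0 peaks).

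Immunoprecipitations of SLBP, RBFOX2 and IgG were compared, all from crosslinked 293T cells, a human embryonic kidney line that carries the SV40 large T antigen. SLBP, precipitated with an antibody from MBL, had 2 libraries digested with 5 U of RNase I (replicates 3 and 4) and 2 digested with 40 U (replicates 1 and 2). RBFOX2, precipitated with an antibody from Bethyl, had 2 libraries at 40 U. The isotype control IgG, from Thermo Fisher, had 1 library at 40 U. Input libraries enter only through the folds. Each peak carries the authors' own log2 fold of immunoprecipitation over its paired input and a −log10 p, with no read numbers, so depth is not known. A peak was called enriched at a −log10 p of at least 5 and a log2 fold of at least 3, which is 8-fold over input. Whether replicates were grown as separate cultures is not stated, so the spread that the p-values rest on may be a technical one.

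Replication-dependent histone genes have no introns, and their mRNAs end in a conserved stem-loop in place of a poly(A) tail. SLBP, the stem-loop binding protein, holds that structure and takes part in 3′ end processing, translation and decay of these mRNAs as cells pass through S phase. The H3 genes of HIST1 all encode the replication-coupled form of histone H3, a core protein of the nucleosome. RBFOX2 is a splicing regulator that binds GCAUG elements, many of them in introns. All 10 members matched 1 entry each in the RefSeq gene table through their older symbols, and 8 of them are listed there with 1 transcript and a length of 486 to 512 nt.

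The bases in front of the start site are printed for the 6 members that RefSeq (GRCh38.p14) lists with a single start in its promoter table, so that genes with strong SLBP signal stand beside 1 without any peak. The table matched 8 members, all but HIST1H3I and HIST1H3J, and HIST1H3D and HIST1H3E have more than 1 start there. Each sequence holds the 100 bases before the start, 5′ to 3′ on the gene's strand, and the capitals mark the CCAAT motif, the TATA motif with letters TATAAA and its variant spelled as TATATA. Both strands were searched, and motifs can overlap, as in HIST1H3F, which reads as the first TATA form on both strands.
HIST1H3A (H3C1), chr6:26020351-26020450, plus strand: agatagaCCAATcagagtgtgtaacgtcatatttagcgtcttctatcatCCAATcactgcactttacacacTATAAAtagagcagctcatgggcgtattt
HIST1H3B (H3C2), chr6:26032100-26032199, minus strand: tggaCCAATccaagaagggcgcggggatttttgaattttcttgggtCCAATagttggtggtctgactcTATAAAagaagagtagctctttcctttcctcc
HIST1H3C (H3C3), chr6:26045284-26045383, plus strand: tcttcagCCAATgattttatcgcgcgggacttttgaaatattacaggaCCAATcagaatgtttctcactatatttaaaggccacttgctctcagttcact
HIST1H3F (H3C7), chr6:26250636-26250735, minus strand: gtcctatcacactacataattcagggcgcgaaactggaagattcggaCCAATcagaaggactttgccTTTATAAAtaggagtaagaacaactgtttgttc
HIST1H3G (H3C8), chr6:26271414-26271513, minus strand: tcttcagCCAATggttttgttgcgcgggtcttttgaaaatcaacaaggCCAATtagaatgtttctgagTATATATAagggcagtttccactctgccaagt
HIST1H3H (H3C10), chr6:27809951-27810050, plus strand: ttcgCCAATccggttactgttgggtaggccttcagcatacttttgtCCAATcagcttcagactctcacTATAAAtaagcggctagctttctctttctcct
CCAAT stood in 6 of the 6 sequences, and in 18.1% of the 35116 stretches of the same length in the table. Either TATA form stood in 5 of the 6, against 6.08% of all stretches, and HIST1H3C had neither. HIST1H3G, which had no peak in any list, held 2 CCAAT motifs and the variant TATA form as well. These are matches of letters, and the peak lists do not measure the promoters.

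SLBP immunoprecipitation recovered RNA of 6 of the 10 H3 genes above input, and 5 of them in all 4 libraries: HIST1H3A, HIST1H3B, HIST1H3E, HIST1H3F and HIST1H3H. HIST1H3C passed only in the 2 libraries at 40 U. HIST1H3I had SLBP peaks that missed the p limit, and HIST1H3D, HIST1H3G and HIST1H3J had no peak in any of the 7 lists. RBFOX2 and IgG had peaks in some of the same windows and 0 enriched ones.

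Enriched peaks in the H3 windows numbered 24 and 19 in the SLBP libraries at 5 U (replicates 3 and 4) and 24 and 19 in those at 40 U (replicates 1 and 2), a mean of 21.5 ± 2.9 (SD, n = 4). They made up 85.7%, 100%, 88.9% and 100% of the H3 peaks of those lists, in the order replicates 3, 4, 1 and 2. Many of these peaks are abutting pieces of 1 stretch, and with touching peaks merged the mean was 9 enriched peaks per library. Over all peaks of the same lists 1.70%, 2.33%, 1.23% and 1.27% were enriched. In RBFOX2 0 of 5 and 0 of 10 H3 peaks were enriched, where 7.95% and 7.66% of all peaks passed. In IgG 0 of 3 H3 peaks were enriched, where 0.180% of all peaks passed. Of the 86 enriched SLBP peaks, 59 carried a −log10 p of 400 and 19 one of 15.658, so these values do not rank the peaks. With so few H3 peaks in RBFOX2 and IgG, counts of 0 say little about low rates.

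By gene, 5 and 5 of the 10 H3 genes held an enriched peak in SLBP replicates 3 and 4 and 6 and 6 in replicates 1 and 2, a mean of 5.50 ± 0.58 (SD, n = 4). Among all stretches of 600 nt with a peak in the same list, counted per strand, 0.499% and 0.859% held an enriched one in the 5 U lists and 0.5% and 0.514% in the 40 U lists. The corresponding shares were 6.55% and 6.25% in RBFOX2 and 0.167% in IgG, and 0 H3 genes passed in these 3 libraries. Of the 39187 stretches with a peak in any SLBP list, 0.156% were enriched in all 4, as 5 of the 10 H3 windows were. The H3 genes held 10.5% and 10.4% of all enriched SLBP peaks between 26 and 28 Mb of chromosome 6 in replicates 3 and 4, and 12.2% and 11.7% in replicates 1 and 2. Of all 1189 peaks in that interval over the 7 lists, enriched or not, 111 lay in the H3 windows. These shares therefore do not set the H3 genes apart within the interval.

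**Figure D1:**
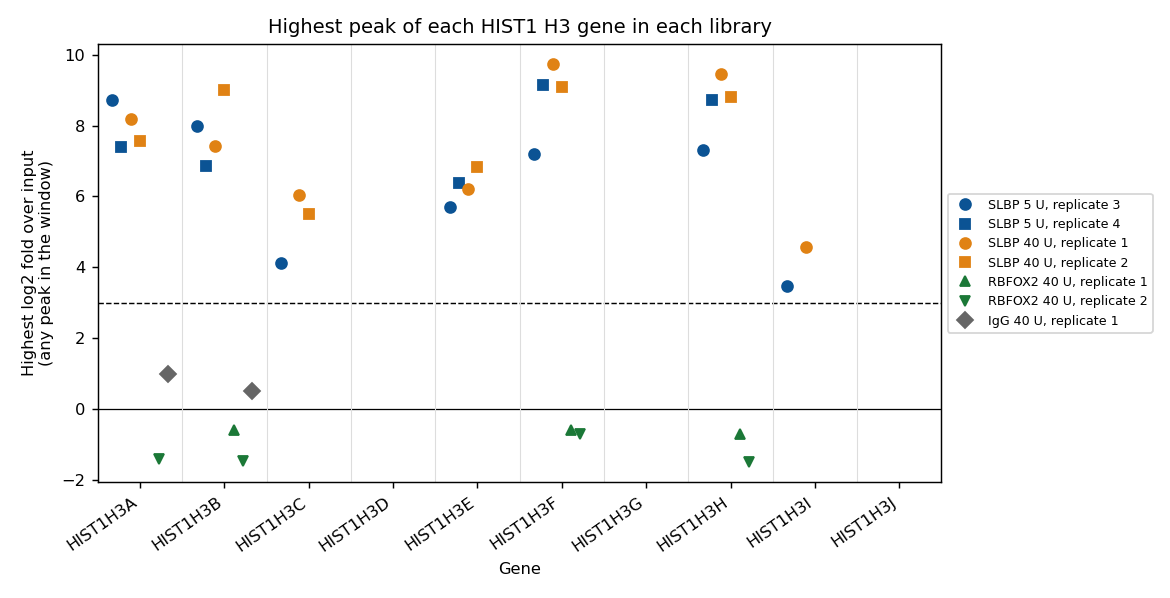
Highest log2 fold over input among all peaks of each gene's window (vertical axis) for the 10 H3 genes (horizontal axis), 1 point per library that had a peak; the dashed line is the fold limit of 3. SLBP points of HIST1H3A, HIST1H3B, HIST1H3E, HIST1H3F and HIST1H3H lie between 5.70 and 9.74, RBFOX2 points lie below 0 and the 2 IgG points are 0.99 and 0.50.

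HIST1H3F, on the minus strand at 26250301 to 26250900 (hg19, window), had the highest SLBP fold of the members on average. Its highest log2 fold was 7.18 and 9.14 in SLBP replicates 3 and 4 (5 U) and 9.74 and 9.10 in replicates 1 and 2 (40 U), a mean of 8.79 ± 1.11 (SD, n = 4). The RBFOX2 lists held 1 peak each there, at −0.59 and −0.72, and the IgG list held none. Replicate 3 stood lowest of the SLBP libraries, and every SLBP value lay above both RBFOX2 values. The nucleotides enriched in all 4 SLBP libraries spanned 26250377 to 26250475.

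HIST1H3H, on the plus strand at 27777801 to 27778400 in the distal block of the cluster, came next. Its highest log2 fold was 7.30 and 8.71 in SLBP replicates 3 and 4 and 9.45 and 8.79 in replicates 1 and 2, with a mean of 8.56 ± 0.90 (SD, n = 4). RBFOX2 peaks there reached −0.71 and −1.51, and IgG had none. Both 40 U values lay above both 5 U values, by a difference of means of −1.12 (5 U minus 40 U; two-sided exact permutation p = 0.333, n = 2 and 2; 2 against 2 allow no lower value). The same split was common, since 50.0% of the 44 SLBP loci enriched in all 4 libraries had lower folds in both 5 U than in both 40 U libraries and 4.55% had higher ones, and HIST1H3H was 1 of 5 H3 loci with it. The positions enriched in all SLBP libraries ran from 27778193 to 27778287.

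HIST1H3A, on the plus strand at 26020701 to 26021300, reached 8.71 and 7.39 in SLBP replicates 3 and 4 and 8.17 and 7.56 in replicates 1 and 2, a mean log2 fold of 7.96 ± 0.60 (SD, n = 4). RBFOX2 replicate 1 had no peak in the window, RBFOX2 replicate 2 reached −1.42 and IgG 0.99. The 5 U and 40 U values overlapped. All 4 SLBP libraries shared enriched positions between 26021078 and 26021172.

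HIST1H3B, on the minus strand at 26031801 to 26032400, reached 8.0 and 6.86 in SLBP replicates 3 and 4 and 7.44 and 9.01 in replicates 1 and 2, a mean log2 fold of 7.82 ± 0.92 (SD, n = 4). The highest RBFOX2 values were −0.59 and −1.47, and IgG reached 0.50. The RNase amounts overlapped here too. Positions enriched in all SLBP libraries lay between 26031828 and 26031919.

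HIST1H3E, on the plus strand at 26225301 to 26225900, had the lowest fold of the 5 genes. It reached 5.70 and 6.39 in SLBP replicates 3 and 4 and 6.20 and 6.82 in replicates 1 and 2, a mean log2 fold of 6.28 ± 0.46 (SD, n = 4). Neither RBFOX2 nor IgG had a peak in its window. Positions enriched in all SLBP libraries spanned 26225764 to 26225822.

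The order by mean log2 fold was HIST1H3F, HIST1H3H, HIST1H3A, HIST1H3B and HIST1H3E. Most neighbours in this order did not differ beyond their spread. HIST1H3F exceeded HIST1H3H by 0.23 with an SD of the within-library difference of 0.24, and in 3 of 4 libraries. HIST1H3H exceeded HIST1H3A by 0.60 (SD of the difference 1.34, 3 of 4 libraries), and HIST1H3A exceeded HIST1H3B by 0.13 (SD 1.06, 3 of 4 libraries). HIST1H3E stood below HIST1H3B by 1.55 (SD of the difference 0.86) and in 4 of 4 libraries. The mean log2 fold over covered nucleotides put HIST1H3E lower only in SLBP replicates 1 and 2. There it was 5.59 and 5.96, against 5.70 and 8.30 in HIST1H3B. In replicates 3 and 4 it was 5.703 and 6.388, against 5.672 and 6.377 in HIST1H3B. Folds of different genes are set side by side only within a list. The coding sequences of these genes are alike, and the handling of reads that fit several copies is not stated in any source used here, so the members' values may not be independent.

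HIST1H3C, on the plus strand at 26045601 to 26046200, passed in the 40 U libraries and in neither 5 U library. Its 2 peaks had −log10 p values of 13.4 and 12.4 in SLBP replicate 1 and 9.49 for both in replicate 2, with highest log2 folds of 6.05 and 5.50. In replicate 3 the 2 peaks had a log2 fold of 4.12 and a −log10 p of 3.64, so they passed the fold limit alone, and replicate 4 had no peak. HIST1H3I, on the minus strand at 27839601 to 27840200, had peaks with a log2 fold of 3.47 in replicate 3 (−log10 p 2.16) and 4.57 in replicate 1 (−log10 p 4.37), and none in replicates 2 and 4. Neither gene had a peak in the RBFOX2 or IgG lists. In HIST1H3E a second peak of replicate 1 fell just outside the limits (−log10 p 4.97, log2 fold 3.47), and one of replicate 2 just inside (6.10 and 3.63). With the p limit dropped, a rule added after the data were seen, the SLBP libraries had 7 and 5 H3 genes at 5 U and 7 and 6 at 40 U. Under that rule 0.896% and 16.1% of all stretches of 600 nt with a peak passed at 5 U, and 7.64% and 7.83% at 40 U.

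The windows of HIST1H3D (26197001 to 26197600), HIST1H3G (26271101 to 26271700) and HIST1H3J (27858001 to 27858700), all on the minus strand, held 0 peaks in each of the 7 lists. The nearest SLBP peak on the same strand lay 1413 nt from the HIST1H3D window, 13654 nt from HIST1H3G and 1778 nt from HIST1H3J. Since a list names only regions called as peaks and the depth is unknown, no limit can be put on the signal of these genes.

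Counted in nucleotides, the SLBP signal covered HIST1H3B most widely in replicates 1, 3 and 4, and HIST1H3E least in all 4 libraries, among the 5 genes. Enriched peaks covered 183 and 172 nt of HIST1H3B in SLBP replicates 3 and 4 and 174 and 101 nt in replicates 1 and 2, a mean of 157.5 ± 37.97 (SD, n = 4). Replicate 2 stood apart below the others there, and its cover of HIST1H3B was below that of HIST1H3A, HIST1H3F and HIST1H3H. HIST1H3H had 148, 119, 115 and 108 nt in replicates 3, 4, 1 and 2, HIST1H3A 122, 119, 101 and 122 nt, HIST1H3F 120, 125, 101 and 102 nt, and HIST1H3E 66, 68, 80 and 96 nt. All of these exceeded RBFOX2, which had 0 enriched nucleotides in both libraries, as IgG had in its 1 library. For each of the 5 genes the difference from RBFOX2 had an exact permutation p of 0.133 (two-sided, n = 4 and 2), and no lower value can be reached with these numbers. For HIST1H3C it was 0.800, and for the 4 genes without an enriched peak 1. These p-values are 1 per gene and were not adjusted over the 10 genes. The groups did not overlap in 5 of 10 H3 windows, beside 0.0581% of all stretches of 600 nt with an SLBP or RBFOX2 peak. With SLBP at 40 U alone, 6 of 10 H3 windows did not overlap, HIST1H3C among them, beside 0.0725% of all stretches with a peak in these libraries.

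**Figure D2:**
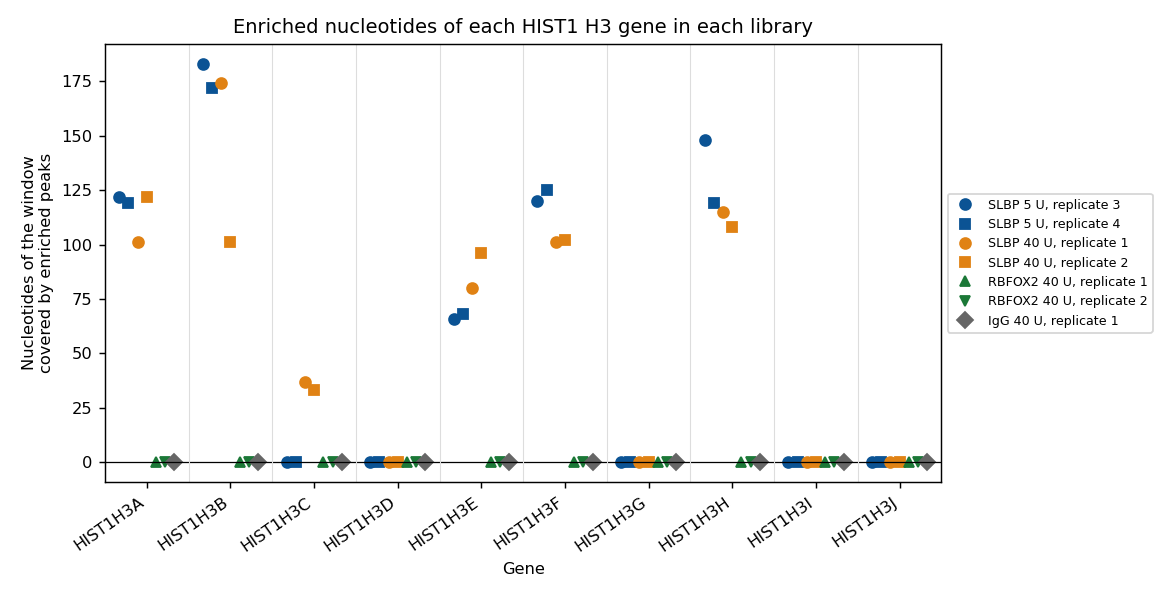
Nucleotides of each window covered by enriched peaks (vertical axis, nt) for the 10 H3 genes (horizontal axis), 1 point per library. All SLBP points of HIST1H3A, HIST1H3B, HIST1H3E, HIST1H3F and HIST1H3H lie between 66 and 183 nt, and all RBFOX2 and IgG points lie at 0.

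Along the genes, the SLBP signal lay toward the 3′ end, the side on which the stem-loop of a histone mRNA stands. Of the enriched nucleotides, 70.0% and 75.0% lay in the last of 3 equal parts of the windows in SLBP replicates 3 and 4 and 80.1% and 90.6% in replicates 1 and 2, a mean of 78.9% ± 8.8 (SD, n = 4). The peak with the highest fold was centred 56.75 ± 26.41 nt upstream of the window's 3′ edge in HIST1H3B (SD, n = 4). It was centred 95.4 ± 10.4 nt upstream in HIST1H3F, 104.75 ± 6.18 nt in HIST1H3E, 124 ± 16 nt in HIST1H3H and 152.5 ± 24.8 nt in HIST1H3A (SD, n = 4 each). These SDs take in both RNase I amounts. Means at 5 U and 40 U were 74.25 and 39.25 nt in HIST1H3B, 109 and 100.5 nt in HIST1H3E and 133.75 and 115 nt in HIST1H3H. They were 165.75 and 139.25 nt in HIST1H3A, and 90 and 100.75 nt in HIST1H3F, the other way. The difference was not tested. The midpoint of all enriched nucleotides lay farther upstream, at 173.5 ± 69.5 nt in HIST1H3B and 193.5 ± 55.7 nt in HIST1H3H (SD, n = 4 each). Window edges are rounded to 100 nt and no hg19 annotation was used, so these distances are comparable between libraries but not between genes, and the stem-loop itself was not located.

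Within genes the fold was higher toward the 3′ end. Where a gene had more than 1 enriched piece in a library, the piece nearest the 3′ end had a higher log2 fold than the one farthest from it in 17 of 19 cases, was equal in 1 and was lower in 1. The last 2 cases were both HIST1H3C. The same genes recur over the libraries, so these cases are not independent. The count was not made at other SLBP loci, so it cannot be called particular to the H3 genes. In HIST1H3F the 3′ piece exceeded the 5′ piece by 3.0 and 2.34 in SLBP replicates 3 and 4 and by 3.37 and 1.49 in replicates 1 and 2. In HIST1H3H the gain was 2.70 and 2.45 in replicates 3 and 4 and 3.47 and 1.55 in replicates 1 and 2. In HIST1H3A it was 2.44 and 0.09 in replicates 3 and 4 and 2.18 and 1.85 in replicates 1 and 2. In replicate 4 of HIST1H3A the 5′ and 3′ pieces were close, at 6.63 and 6.72, and the piece between them was the highest, at 7.39.

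**Figure D3:**
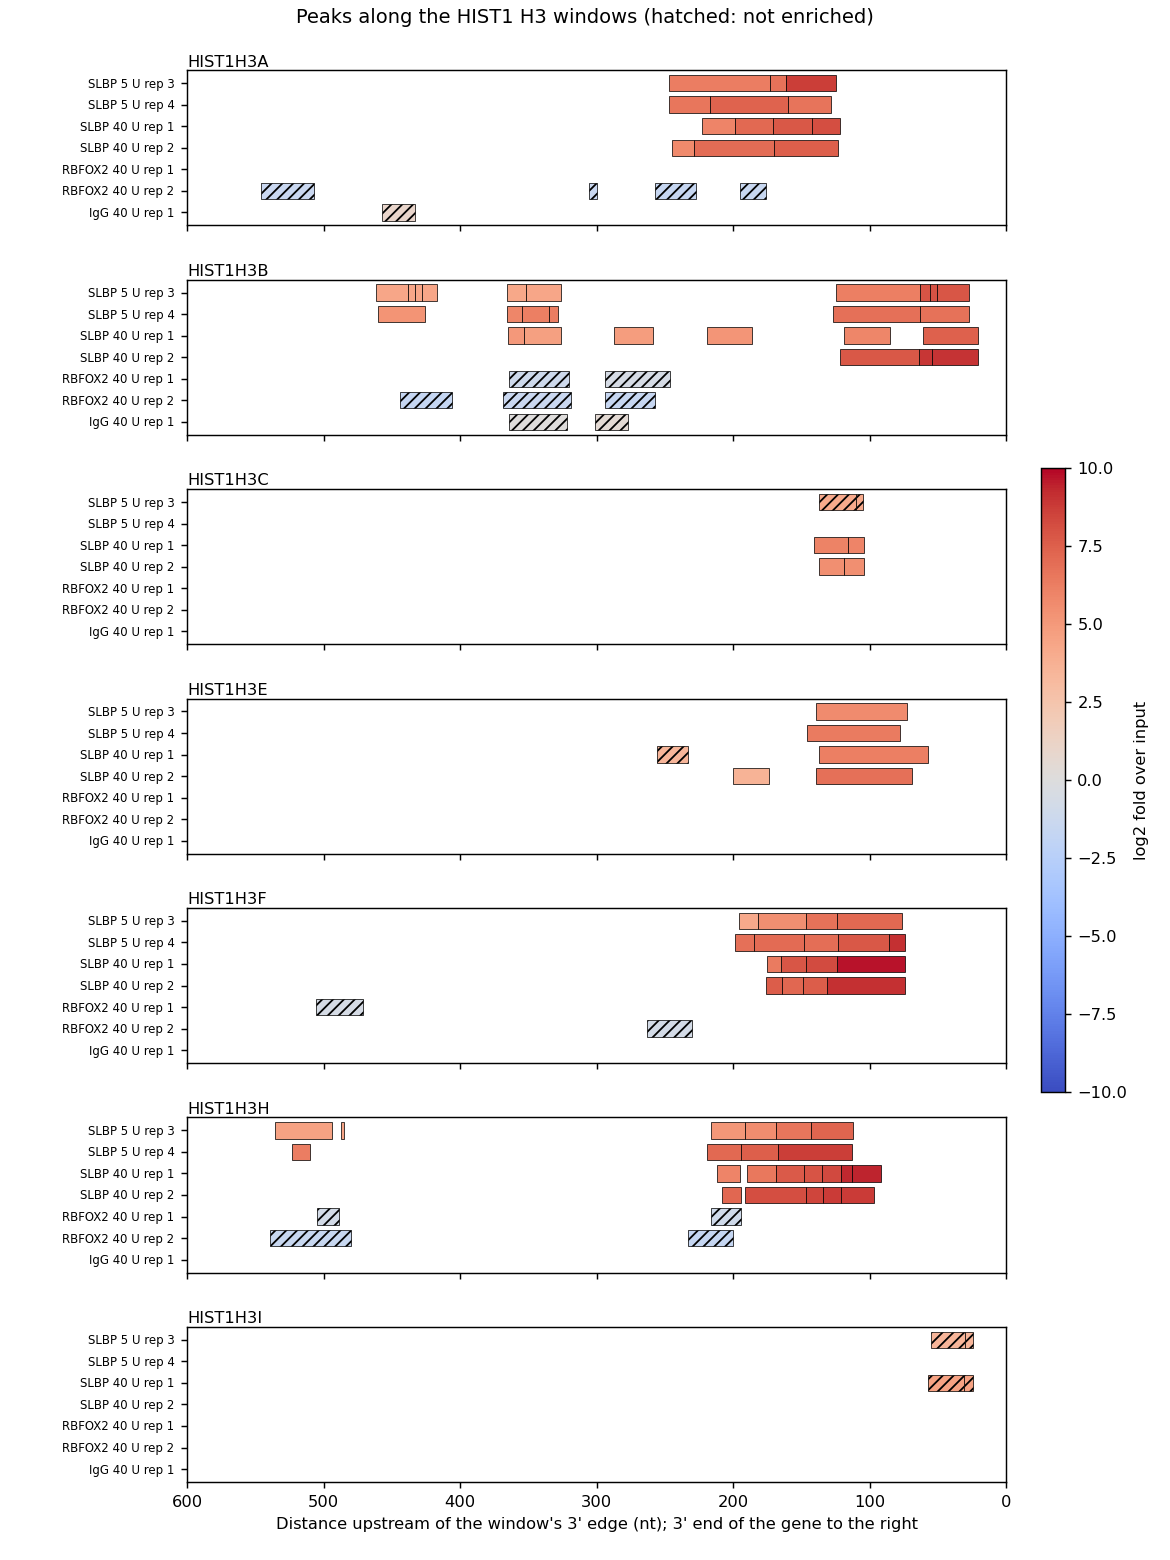
Peaks of the 7 libraries (rows) along the windows of the 7 H3 genes with a peak, by distance upstream of the window's 3′ edge (horizontal axis, nt), coloured by log2 fold over input and hatched where not enriched. Enriched SLBP peaks gather toward the 3′ edge, RBFOX2 and IgG peaks are pale and lie farther upstream for the most part, and only the 5 U SLBP libraries have enriched peaks beyond 400 nt.

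RBFOX2 peaks in the H3 windows all lay below input. They numbered 5 in replicate 1 and 10 in replicate 2, had median log2 folds of −0.71 and −1.50, and 15 of 15 were negative. The share of negative folds over all RBFOX2 peaks is not given here. Lying below input therefore cannot be called particular to the H3 windows. The 3 IgG peaks, 1 in HIST1H3A and 2 in HIST1H3B, had log2 folds of 0.13 to 0.99. In HIST1H3B the peaks of both RBFOX2 libraries and of IgG lay 246 to 444 nt upstream of the window's 3′ edge, outside the stretch of 27 to 119 nt in which the positions enriched in all SLBP libraries lay. They overlapped other enriched SLBP peaks, since peaks of both RBFOX2 libraries and of IgG at 319 to 369 nt coincided with SLBP peaks at 326 to 366 nt in replicates 3, 4 and 1. The RBFOX2 replicate 2 peak at 406 to 444 nt met SLBP peaks at 417 to 462 nt in replicate 3 and 426 to 460 nt in replicate 4. In HIST1H3H RBFOX2 replicates 1 and 2 had peaks at 194 to 216 nt and 200 to 233 nt, which touch the upstream end of the shared SLBP stretch at 113 to 208 nt. They also had peaks at 489 to 505 nt and 480 to 539 nt, where only the 5 U SLBP libraries had enriched peaks. Both met the SLBP replicate 3 peak at 494 to 536 nt. Only that of RBFOX2 replicate 2 met the SLBP replicate 4 peak at 510 to 523 nt. In HIST1H3A RBFOX2 replicate 2 had a peak at 176 to 195 nt, inside the shared SLBP stretch of 128 to 223 nt. The difference in highest log2 fold between SLBP and RBFOX2 had an exact permutation p of 0.133 (two-sided, n = 4 and 2) in each of HIST1H3B, HIST1H3F and HIST1H3H, the genes with a peak in all 6 libraries.

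The 3′ border of the SLBP signal lay farther upstream at 5 U than at 40 U of RNase I in 4 of the 5 genes, with too few libraries for any test to pass 0.05. RNase I trims the RNA before precipitation, so less enzyme leaves longer fragments. Fragment lengths were not measured here, and whether they bear on the 3′ border was not tested. The 3′ border of the enriched signal stood 112 and 113 nt upstream of the window's 3′ edge at 5 U in HIST1H3H, against 92 and 97 nt at 40 U. In HIST1H3E it stood at 73 and 78 nt at 5 U, against 57 and 69 nt at 40 U. In HIST1H3B it stood at 27 and 27 nt at 5 U, against 21 and 21 nt at 40 U, and in HIST1H3A at 125 and 128 nt, against 122 and 123 nt. HIST1H3F hardly differed, with 76 and 74 nt at 5 U and 74 and 74 nt at 40 U. The 2 amounts did not overlap in 4 of these 5 genes, always with the 5 U border farther upstream, by means of 4 to 18 nt (two-sided exact permutation p = 0.333 each, n = 2 and 2, the lowest that can be reached; HIST1H3F p = 1). The shift of HIST1H3E was 12.5 nt with all libraries and 6.5 nt without SLBP replicate 1, and that of HIST1H3A was 4 nt with all and 2.5 nt without replicate 4. Among all 44 SLBP loci enriched in all 4 libraries, 47.7% showed the same shift and 4.55% the opposite one. Outside the H3 windows 17 of 39 loci did so, and the H3 count was not tested against them. The comparison of borders was added after the peaks had been seen, and the RNase I amounts come with different replicate numbers, so digestion and library cannot be told apart.

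**Figure D4:**
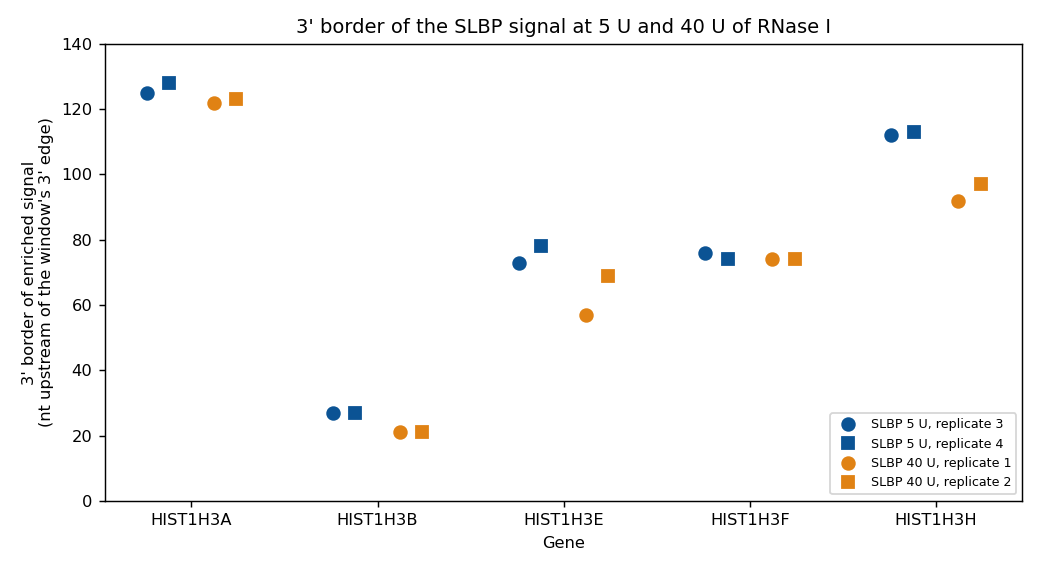
Position of the 3′ border of the enriched SLBP signal (vertical axis, nt upstream of the window's 3′ edge) in the 5 H3 genes enriched in all SLBP libraries (horizontal axis), 1 point per library, 5 U left of 40 U. Points at 5 U lie farther upstream in HIST1H3A, HIST1H3B, HIST1H3E and HIST1H3H, and those of HIST1H3F overlap.

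The 5′ border differed between the RNase amounts by more nucleotides than the 3′ border in HIST1H3A, HIST1H3B, HIST1H3F and HIST1H3H. In HIST1H3E the means went the other way, through a border at 200 nt in replicate 2. That border comes from 1 piece just inside the limits (−log10 p 6.10, log2 fold 3.63). HIST1H3B had enriched peaks up to 462 and 460 nt upstream of the window's 3′ edge at 5 U, against 365 and 122 nt at 40 U. HIST1H3H had them up to 536 and 523 nt at 5 U, against 212 and 208 nt at 40 U. In HIST1H3F the border stood at 196 and 199 nt at 5 U and at 175 and 176 nt at 40 U, and in HIST1H3A at 247 and 247 nt at 5 U and 223 and 245 nt at 40 U. HIST1H3E overlapped, at 139 and 146 nt and at 137 and 200 nt (5 U and 40 U; exact permutation p = 1, two-sided, n = 2 and 2, and 0.333 for each of the other 4 genes). Over the 44 SLBP loci, with borders read within 100 nt of a locus, 47.7% had the 5′ border farther upstream at 5 U and 6.82% farther downstream, and 3 and 0 of the 5 H3 loci did. The first of the 3 equal parts of the windows held 89 and 47 enriched nucleotides in the 5 U libraries and 0 in both 40 U libraries. The enriched peaks in that part had lower folds than the 3′ peaks of the same gene and library. In HIST1H3H they had log2 folds of 4.6 and 4.45 in replicate 3 and 6.26 in replicate 4, and in HIST1H3B 4.31 to 4.36 in replicate 3 and 5.30 in replicate 4.

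The number of enriched nucleotides did not move one way with RNase I. It was higher at 5 U without overlap in HIST1H3F, by 21 nt, and in HIST1H3H, by 22 nt, and lower without overlap in HIST1H3E, by a difference of −21 nt, and in HIST1H3C, by −35 nt (5 U minus 40 U; exact permutation p = 0.333 each, two-sided, n = 2 and 2). HIST1H3A and HIST1H3B overlapped (exact permutation p of 1 and 0.667). The sizes rest on single libraries in part: the difference of HIST1H3H was 7.5 nt without SLBP replicate 3 and 36.5 nt without replicate 4, and that of HIST1H3E −13 nt without replicate 2. At the stricter limits (−log10 p of 10, log2 fold of 4) it was −8 nt in HIST1H3E and −18.5 nt in HIST1H3C, where the amounts then overlapped. At a −log10 p of 3 it was −32.5 nt in HIST1H3E and −19 nt in HIST1H3C. Among the 61 stretches of 600 nt enriched in all 4 SLBP libraries, 32.8% were higher without overlap at 5 U and 18.0% lower, so such splits were common. Over all 39187 stretches with an SLBP peak the shares were 0.0689% and 0.0434%.

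Agreement between the 4 SLBP libraries differed from gene to gene. The nucleotides enriched in all of them made up 79.2% of those enriched in any for HIST1H3F (99 of 125 nt) and 76% for HIST1H3A (95 of 125 nt). The share was 52.6% for HIST1H3H (90 of 171 nt) and 51.3% for HIST1H3E (59 of 115 nt). It was 27.0% for HIST1H3B (68 of 252 nt).

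Set among the 33 HIST1 loci that were enriched in all SLBP libraries, the 5 H3 genes were spread over the range. They ranked 8 (HIST1H3F), 11 (HIST1H3H), 19 (HIST1H3A), 22 (HIST1H3B) and 31 (HIST1H3E) by mean log2 fold. Their median was 7.96, against 8.08 for the other 28 loci, and their range of 6.28 to 8.79 lay inside that of 5.70 to 9.84 of the others. The other loci most like the mean of the 5 genes in their 4 SLBP folds, by Euclidean distance, were all on chromosome 6. They lay at 27861536 to 27861663 (plus strand, distance 0.78, mean log2 fold 8.03 ± 0.61), at 26285358 to 26285699 (minus strand, 0.81, 8.14 ± 0.65) and at 26217605 to 26217662 (plus strand, 0.88, 7.86 ± 0.28; SD, n = 4 each).

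**Figure D5:**
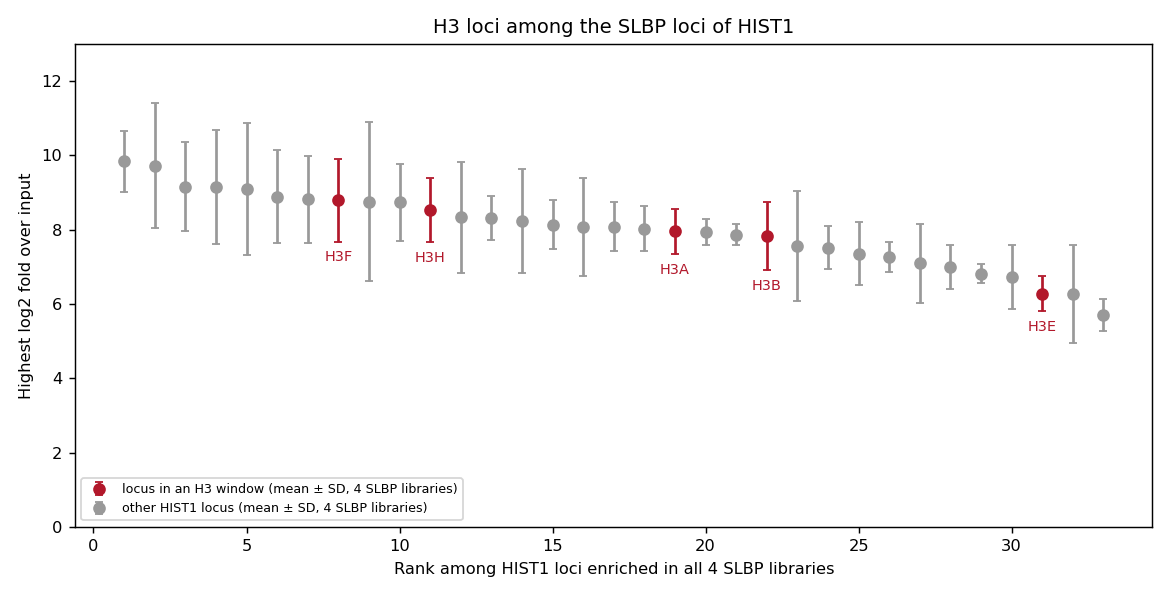
Highest log2 fold over input, mean ± SD over 4 SLBP libraries (vertical axis), of the 33 HIST1 loci enriched in all 4, in order of the mean (horizontal axis, rank). The 5 H3 loci (red) stand at ranks 8, 11, 19, 22 and 31 among the others (grey).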

How the data were processed

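The members and lists were chosen with earlier results of these data known. In the deposited lists every peak has 2 numbers by the authors, the −log10 of a p-value and the log2 fold over paired input. The lists have no header line, and both units were inferred from the values. The submitters' processing notes name the build hg19 and the tools STAR, SAMtools, Picard, GATK and cutadapt. No source used here names the peak caller. The authors' −log10 p ends at a ceiling of 400, so it served as a filter only.

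Of the 24 samples, 7 with a peak list entered (groups from the titles), and the lists held 10122 to 97594 peaks. Windows were compared by nucleotides under enriched peaks, with exact permutation tests over libraries, or described by counts. SLBP loci were nucleotides enriched in all 4 SLBP libraries, joined within 1 kb on a strand. Their borders were read within 100 nt of a locus. All 10 members are named; other loci are the 3 nearest in fold. The overlap code was tested on simulated peaks. Python 3.11.15, NumPy 2.4.6, pandas 2.3.3 and SciPy 1.17.1 were used. The border comparison, the count without a p limit and the shares of loci split by fold were added after the data were seen. Alternatives changed the limits, windows, overlap, merging and libraries. Peak sequences were not used here, since no hg19 genome was used.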

Additional observations from a re-analysis of the deposited data

Results flagged for a closer look

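Of 23 sets of 4 SLBP values looked at, 4 held a library far from the other 3 by Dixon's test, where chance marks about 1 set in 20. Replicate 1 covered 101 nt of HIST1H3A with enriched peaks, against 119 to 122 nt in the other SLBP libraries. Replicate 2 covered 101 nt of HIST1H3B, against 172 to 183 nt in the others. In HIST1H3F the 3′ border of replicate 3 lay at 76 nt and that of the others at 74 nt, and since those 3 values are tied, any gap would have been marked, so this set says nothing beside the chance rate. The highest peak of HIST1H3F was centred 80 nt upstream of the window's 3′ edge in replicate 4 and 99 to 102.5 nt in the others. Causes were not tested.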

How the results depend on the processing

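HIST1 H3 genes with an enriched peak averaged 5.25 to 6.25 per SLBP library under all limits tried, and 5 genes were enriched in all SLBP libraries under each of them. Merging touching peaks left 9 enriched peaks in place of 21.5 and moved the highest peak's mean position over the 5 genes to 127.575 nt, against 106.75 nt. The midpoint of all enriched nucleotides stood at 158 nt. Both measures can take in more nucleotides than the highest peak alone: merging takes 1 joined stretch, and the midpoint takes separate stretches too. The mean log2 fold over covered nucleotides was 6.93, against 7.88 for the highest peak. Leaving out 1 replicate kept the gene count at 5.33 to 5.67 and the share in the 3′-most of 3 equal parts at 75.0% to 81.9%; the difference in enriched nucleotides of HIST1H3A between 5 U and 40 U was −1.5 nt without SLBP replicate 1 and 19.5 nt without SLBP replicate 2, against 9 nt with all. With SLBP at 40 U alone 6 H3 genes exceeded RBFOX2, beside 0.0725% of all stretches. With the replicate number as a block, pairing libraries 1 and 2, both values were the same. RBFOX2 had 0 enriched nucleotides in the H3 windows in both libraries, so pairing could not change the count of H3 genes. The blocked exact permutation test gave p = 0.5 for each of the 6 genes (n = 2 pairs), and no lower value can be reached. The block therefore cannot show whether the H3 result depends on pairing. The highest folds of same-numbered SLBP and RBFOX2 libraries did not deviate together (r = −0.031 over 3932 stretches of 600 nt). The labels give no link between them beyond the number, and whether they shared a batch was not tested. Read depth is unknown, so low signal at HIST1H3D, HIST1H3G and HIST1H3J cannot be bounded.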
